A study of Homo sapiens with 12 samples.

Results

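Cyclin-dependent kinase inhibitors and growth arrest genes linked to p53 were examined in HepG2 cells, a human hepatoma line in long use. The set held 9 genes: the inhibitors CDKN1A (p21), CDKN1B (p27), CDKN1C (p57), CDKN2C (p18) and CDKN2D (p19), and the growth arrest genes GADD45A, GADD45B, BTG2 and GDF15. A gene was measured where the array annotation gave a probe set its symbol and no other, which held for 7 of the 9, out of 18417 genes measured in all. CDKN2C and BTG2 were not analysed here. Each of the 7 had 1 probe set, and all 7 lay above the level under which genes were left out as dim, so none was removed. The sh-p53 line carried a small-hairpin RNA that targets p53, and the sh-con line a hairpin of no relevant target. Cells of both were kept for 24 h in DMSO (the solvent control), in Nutlin at 10 uM or in AICAR at 0.5 mM, and the study's design calls both compounds p53 stimulators. This gave 6 groups of 2 arrays, from wells plated as biological duplicates. Every group carried a hairpin, so cells without any hairpin were not compared, and p53's own transcript was not analysed here. No source used here says whether either line is 1 clone or a pool. Each hairpin was read in 1 line, so its effect cannot be told apart from any other difference between the lines.

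Progress through the cell cycle is driven by cyclin-dependent kinases (CDKs), which are switched on by cyclins and held back by separate families of inhibitors. CDKN1A, CDKN1B and CDKN1C bind whole cyclin-CDK complexes, whereas CDKN2C and CDKN2D, of the INK4 family, bind CDK4 and CDK6 and keep cyclin D away. CDKN1A is the best known transcriptional target of p53, and p21 keeps RB and its relatives in the form that represses E2F target genes. CDKN1B is held low mainly by destruction of its protein and its transcription is known to be raised by FOXO factors. The small GADD45 proteins are stress sensors that bind PCNA, p21 and the kinase MAP3K4, upstream of p38 and JNK. GDF15 is a secreted relative of TGF-beta, known as a target both of p53 and of the integrated stress response. Nutlin blocks the grip of MDM2 on p53, and AICAR is a precursor of an AMP mimic that activates the energy-sensing kinase AMPK.

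The stretch of 250 bases before the start of 4 members is shown, as examples of the response patterns described below and not all of them. GADD45A and CDKN1C had no such window. CDKN1A rose with both compounds in both lines, and GADD45B rose with AICAR in both lines. GDF15 rose or fell with the compound and the line, and CDKN1B fell with Nutlin in sh-con and with AICAR in sh-p53. Sequences are from RefSeq, build GRCh38.p14, read 5' to 3', and capitals mark 3 promoter motifs on either strand: the GC box GGGCGG, the CCAAT box and the TATA box TATAAA.
CDKN1A, chr6:36678464-36678713, plus strand: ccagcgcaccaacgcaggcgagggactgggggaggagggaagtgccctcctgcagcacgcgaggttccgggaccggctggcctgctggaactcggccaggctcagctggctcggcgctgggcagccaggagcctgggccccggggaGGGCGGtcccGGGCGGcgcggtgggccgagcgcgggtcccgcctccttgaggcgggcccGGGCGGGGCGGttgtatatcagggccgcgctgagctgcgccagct
GDF15, chr19:18385908-18386157, plus strand: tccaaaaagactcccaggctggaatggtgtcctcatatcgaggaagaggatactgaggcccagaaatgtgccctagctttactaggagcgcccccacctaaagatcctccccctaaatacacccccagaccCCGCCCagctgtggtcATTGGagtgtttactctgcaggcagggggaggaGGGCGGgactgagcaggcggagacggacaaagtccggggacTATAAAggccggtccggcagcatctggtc
CDKN1B, chr12:12717118-12717367, plus strand: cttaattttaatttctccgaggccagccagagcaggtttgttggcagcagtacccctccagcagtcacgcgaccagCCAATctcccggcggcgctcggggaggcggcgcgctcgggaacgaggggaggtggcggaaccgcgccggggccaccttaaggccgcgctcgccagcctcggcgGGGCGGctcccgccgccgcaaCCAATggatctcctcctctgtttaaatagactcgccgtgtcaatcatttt
GADD45B, chr19:2475877-2476126, plus strand: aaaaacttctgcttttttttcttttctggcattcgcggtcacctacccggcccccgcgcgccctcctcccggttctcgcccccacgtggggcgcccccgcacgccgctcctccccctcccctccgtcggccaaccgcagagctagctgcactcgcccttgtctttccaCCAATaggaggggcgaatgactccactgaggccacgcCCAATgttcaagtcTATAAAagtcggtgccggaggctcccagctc
The window of CDKN1A held 4 GC boxes, ending 99, 89, 40 and 35 bases before the start, of which the last pair overlap, and no CCAAT or TATAAA. GDF15 had a TATAAA ending 24 bases before the start, 2 GC boxes and 1 CCAAT, and also 1 copy of the forkhead motif GTAAACA ending 90 bases before the start, printed in lower case on the opposite strand. CDKN1B had 1 GC box and 2 CCAAT boxes, ending 170 and 46 bases before the start. GADD45B had 2 CCAAT boxes, a TATAAA ending 26 bases before the start and 1 copy of CACGTG, which is printed in lower case. Of all 35116 RefSeq windows of this length, 42.6% held GGGCGG, 32.0% held CCAAT, 10.7% held TATAAA, 2.98% held GTAAACA and 6.34% held CACGTG. The decamer consensus of p53 was found in 5.57% of all windows and in no window of the 7 members for which RefSeq gave a window, which were CDKN1A, CDKN1B, CDKN2C, CDKN2D, GADD45B, BTG2 and GDF15. The p53 sites known for CDKN1A lie further upstream than this stretch, so the missing match says only that these letters are not in this window. TGACGTCA (1.65% of all windows), TGANTCA (6.57%) and TTTGAA (13.3%) were also searched for on both strands and matched in none of these windows.

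The arrays report log2 levels, so that a difference of 1 is a 2-fold change, and genes were called changed at a Benjamini-Hochberg adjusted p under 0.05 from 1 limma fit of all 12 arrays over 13813 genes. Duplicate arrays correlated over genes with r = 0.983 to 0.994, and the medians of the 12 arrays lay between 5.64 and 5.84. Liver markers were read to check the labelled cell type, which says nothing on the hairpin or compound of an array. All 10 hepatocyte and hepatoma genes with a probe set were above the dim level, with means from 10.79 (APOA1) to 12.8 (ALB). All 5 endothelial markers lay below that level, 3 of 6 fibroblast markers did (DCN, LUM and POSTN), and of 5 leukocyte markers PTPRC and CD3E did, whereas LYZ was at 12.48. Summed over a list, the 10 hepatocyte markers ranged from 117.9 to 119.8 over the 6 groups, and the fibroblast, endothelial and leukocyte lists from 26.3 to 27.5, 20.3 to 21.1 and 32.6 to 34.5. Their part in the results below was not tested. The arrays read RNA pooled from a well, so fewer cells of a kind and less RNA per cell cannot be told apart. Only 2 arrays per group limit the precision of every comparison.

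Nutlin raised the p53-linked arrest genes CDKN1A, GDF15 and GADD45A in sh-con and lowered CDKN1B, and in sh-p53 it raised CDKN1A alone among the 7. Thus 3 of 7 were called higher with Nutlin in sh-con, where 11.3% of all genes were, and 1 was called lower, where 18.9% were. Their median change was 0.40, against 0.012 over all genes tested. In sh-p53 1 of 7 was called higher and 0 lower, where 0.0796% of all genes (11 genes) were called higher and 0% lower. That split over all genes was 29 higher and 38 lower with only the groups compared in the fit, 16 and 12 with a filter at the 50th percentile, 16 and 10 with a robust prior that follows the level, and 13 and 1 after quantile normalisation again. Without adjustment limma gave p under 0.05 there for 3 members, all higher, and for 296 genes higher and 564 lower over all. The median member change in sh-p53 was 0.18, against -0.016 over all genes. The difference of the Nutlin response between the lines, sh-p53 minus sh-con, was called negative for 3 of 7, where 2.73% of all genes were negative and 4.67% positive. Those 3 were CDKN1A, GDF15 and GADD45A.

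AICAR raised CDKN1A, GADD45B and CDKN2D in both lines and GADD45A in sh-con, and it lowered CDKN1B and GDF15 in sh-p53. In sh-con 4 of 7 members were called higher and 0 lower, where 14.6% and 23.2% of all genes were. Without adjustment limma gave 4 with a p under 0.05 that were higher and 1 lower. In sh-p53 3 were called higher and 2 lower, where 16.2% and 21.6% of all genes were. The median member change was 0.55 in sh-con and 0.27 in sh-p53, against 0.035 and 0.067 over all genes. The response differed between the lines for 1 of 7, GDF15, where 0.304% of all genes were called positive and 0.709% negative. Both compounds were set against the same DMSO arrays, so their changes share that error. The balance of calls over all genes depended on how the arrays were scaled. Of the genes called with AICAR, 38.7% were higher in sh-con and 42.8% in sh-p53, but 22% and 23.1% when each array was centred on the median of its probe sets, which shifted the median of all genes by -0.141 and -0.152. Centring on the genes tested instead gave 52.2% with AICAR in sh-con, and 52.4% with Nutlin in sh-con in place of 37.4%, each with a shift of 0.110. For the AICAR difference between the lines the share higher was 30% and 16.9% with probe sets centred.

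**Figure D1:**
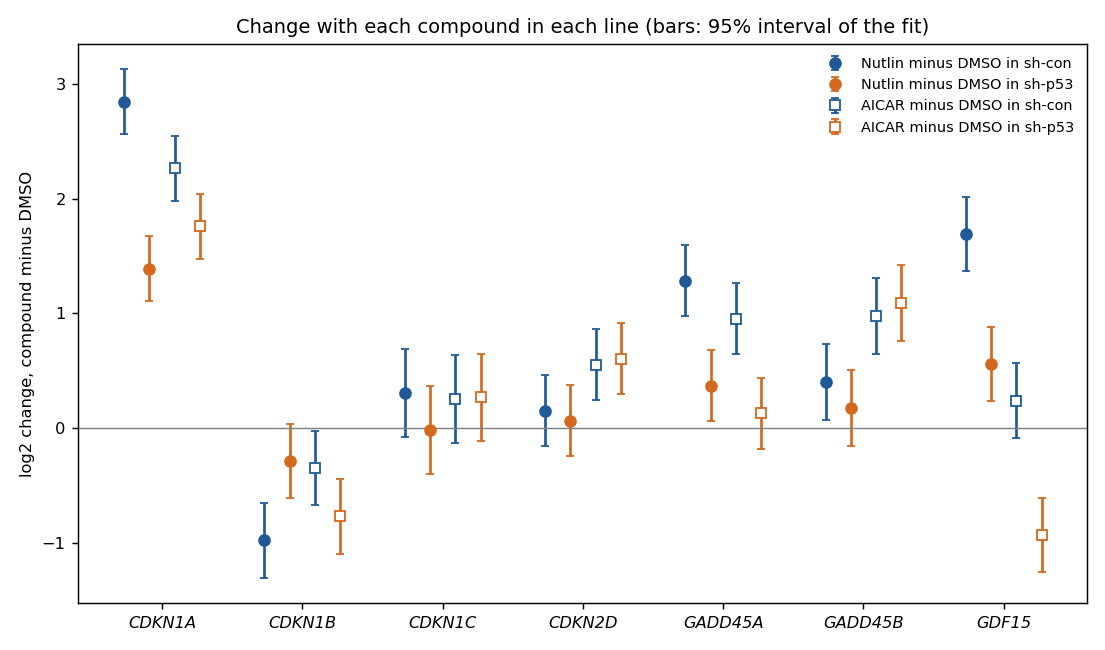
Log2 change with each compound against DMSO (vertical axis) for the 7 measured members, as points with the 95% interval of the fit; filled circles are Nutlin, open squares AICAR, blue sh-con and orange sh-p53. CDKN1A lies above 0 in all 4 comparisons (1.39 to 2.84), and GDF15 spans from 1.69 with Nutlin in sh-con to -0.94 with AICAR in sh-p53.

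CDKN1A, whose product p21 blocks CDK2 and CDK1 complexes, moved the most of the 7. Its arrays read 7.06 and 6.93 in sh-con with DMSO, 9.92 and 9.76 with Nutlin and 9.31 and 9.21 with AICAR. Those of sh-p53 were 6.14 and 6.32 with DMSO, 7.61 and 7.63 with Nutlin and 8.02 and 7.96 with AICAR. No array of any group overlapped with an array of another group, and the group means spanned 3.61 on the log2 scale, or 12.2-fold. With Nutlin in sh-con the change was 2.84 ± 0.13 (SE), or 7.18-fold (limma adjusted p = 2.67e-11). In sh-p53 it was 1.39 ± 0.13, or 2.62-fold (adjusted p = 6.67e-05), which made CDKN1A 1 of the 11 genes called. That call held for CDKN1A under every alternative tried, while the number of genes called ranged from 5 to 67, the lowest counts coming without sh-p53 DMSO array 1 or 2 or sh-p53 Nutlin array 1. The response was smaller in sh-p53 by -1.45 ± 0.19 (95% interval -1.86 to -1.05, adjusted p = 3.82e-05). With AICAR the change was 2.27 (4.81-fold, adjusted p = 2.25e-09) in sh-con and 1.76 (3.39-fold, adjusted p = 4.26e-08) in sh-p53. The difference of the AICAR response between the lines, -0.51 (95% interval -0.91 to -0.11), was not called at adjusted p = 0.24.

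The order of the CDKN1A levels was sh-con Nutlin, sh-con AICAR, sh-p53 AICAR, sh-p53 Nutlin, sh-con DMSO and sh-p53 DMSO, from high to low. Each pair of neighbours in that order differed in the limma fit, with the largest adjusted p, 0.0409, for sh-p53 AICAR over sh-p53 Nutlin. Nutlin gave the higher level in sh-con, by 0.58 (adjusted p = 0.00238), and AICAR the higher level in sh-p53, by 0.37. The difference between the lines in Nutlin minus AICAR was called (-0.95 ± 0.19, adjusted p = 0.00358), in a comparison added after the data had been seen. It tests whether the gap between the compounds differed between the lines, not whether their order reversed. The 0.37 was lost when any 1 of the 4 sh-p53 Nutlin and AICAR arrays was left out (adjusted p = 0.0866 to 0.176), with arrays centred on the median of their probe sets (0.227) and with only these groups in the fit (0.0855). In DMSO, without either compound, CDKN1A was lower in sh-p53 than in sh-con by -0.76 ± 0.13, or 1.70-fold (adjusted p = 0.00625). Leaving out array 1 of sh-con DMSO ended that call (-0.70, adjusted p = 0.181), as did leaving out array 1 of sh-p53 DMSO (-0.68, 0.18).

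**Figure D2:**
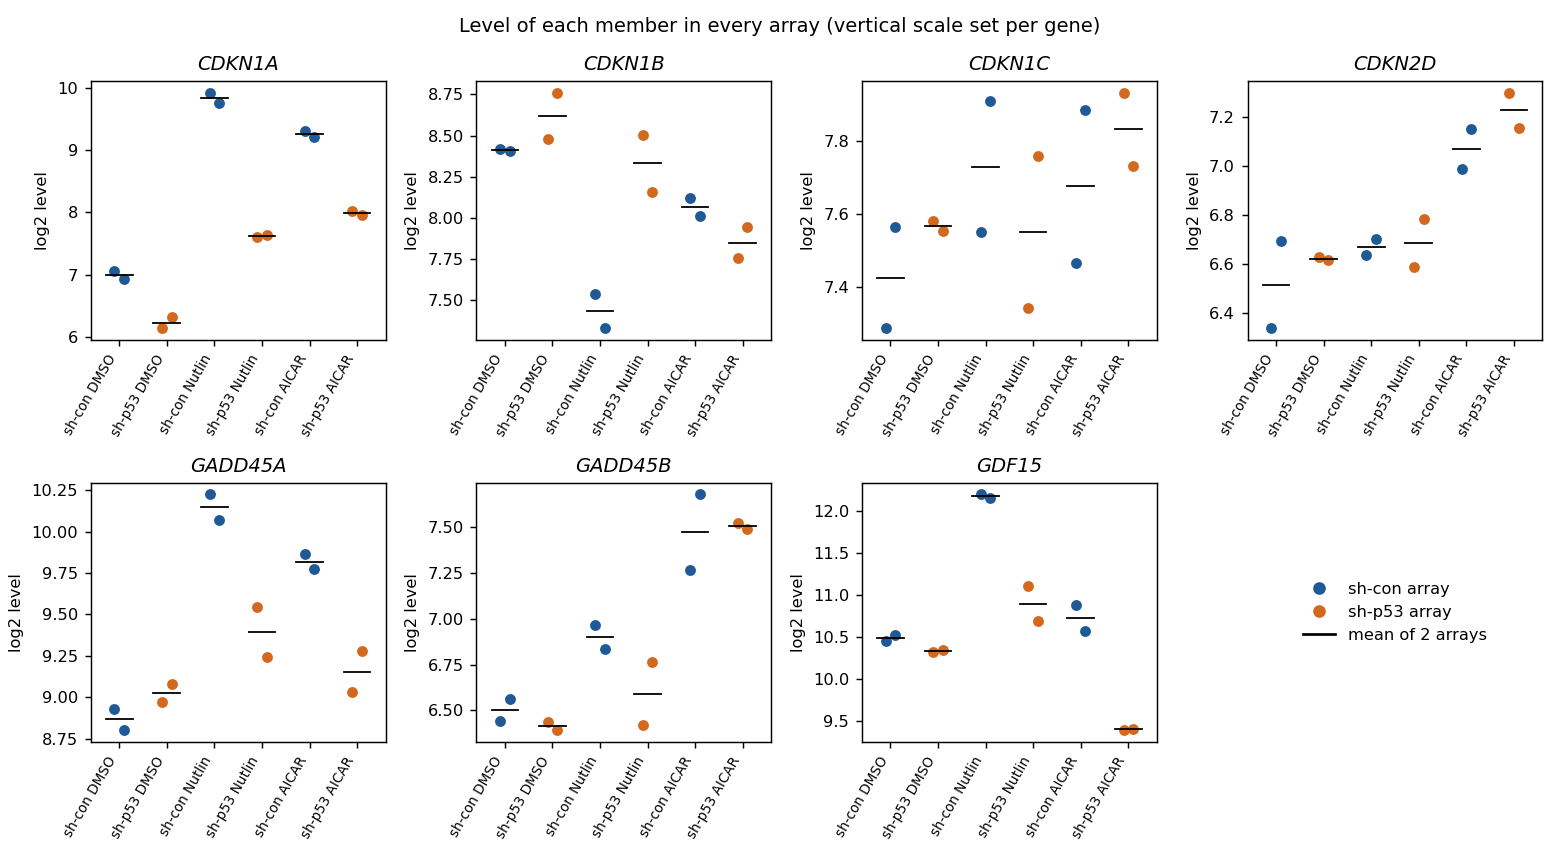
Log2 level of each of the 7 measured members (vertical axis, scaled per gene) in every array of the 6 groups; points are arrays, blue for sh-con and orange for sh-p53, and bars are means of 2 arrays. CDKN1A arrays run from 6.14 to 9.92 with no overlap between groups, whereas the CDKN1C arrays lie between 7.29 and 7.93 and overlap in most groups.

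GADD45A, a stress sensor that binds PCNA and MAP3K4, rose with Nutlin and AICAR in sh-con. Its sh-con arrays read 8.93 and 8.80 with DMSO, 10.22 and 10.07 with Nutlin and 9.86 and 9.77 with AICAR, 3 groups that did not overlap. The sh-p53 readings were 8.97 and 9.08 with DMSO, 9.55 and 9.24 with Nutlin and 9.03 and 9.28 with AICAR, so that the AICAR and DMSO arrays overlapped. The change in sh-con was 1.28 ± 0.15, or 2.43-fold, with Nutlin (limma adjusted p = 2.88e-06) and 0.95, or 1.93-fold, with AICAR (6.63e-05). In sh-p53 it was 0.37 with Nutlin (adjusted p = 0.672) and 0.13 with AICAR (0.505), neither of them called. The Nutlin response was smaller in sh-p53 by -0.91 (95% interval -1.35 to -0.48, adjusted p = 0.00867), which did not pass when sh-con DMSO array 2 was left out (0.0502). For AICAR the difference was -0.82 (95% interval -1.26 to -0.38), with an adjusted p of 0.0678, and it was called under 4 of the other settings, with adjusted p from 0.0178 to 0.035. Those were a filter at the 50th percentile, a robust prior that follows the level, quantile normalisation again and centring on the genes tested.

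GADD45B, its close relative, moved with AICAR. Its arrays read 6.44 and 6.56 with DMSO, 6.96 and 6.84 with Nutlin and 7.27 and 7.68 with AICAR in sh-con. In sh-p53 they read 6.44 and 6.39 with DMSO, 6.42 and 6.77 with Nutlin and 7.52 and 7.49 with AICAR. The 4 AICAR arrays were the highest of the 12. AICAR raised it by 0.97 ± 0.16 (1.96-fold, adjusted p = 0.000105) in sh-con and by 1.09 ± 0.16 (2.13-fold, adjusted p = 3.56e-05) in sh-p53. The difference of the AICAR response between the lines was 0.12, with a 95% interval from -0.35 to 0.59. With Nutlin the change was 0.40 in sh-con (adjusted p = 0.0635), which was called with a filter at the 50th percentile (0.0413), with only these groups in the fit (0.0216) and with arrays centred on the genes tested (0.044). It was 0.18 in sh-p53 (adjusted p = 0.948). Nutlin therefore gave lower GADD45B levels than AICAR, by -0.57 in sh-con (adjusted p = 0.00809) and -0.92 in sh-p53 (0.000212). The sh-con difference was lost without sh-con AICAR array 2 (-0.37, adjusted p = 0.118) and without sh-con Nutlin array 2 (0.0675).

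GDF15, the secreted stress factor, rose with Nutlin in sh-con and fell with AICAR in sh-p53. Its arrays read 10.45 and 10.52 with DMSO, 12.20 and 12.16 with Nutlin and 10.88 and 10.57 with AICAR in sh-con. The corresponding sh-p53 levels were 10.32 and 10.35 with DMSO, 11.10 and 10.68 with Nutlin and 9.39 and 9.40 with AICAR. The sh-con Nutlin arrays were thus the highest and the sh-p53 AICAR arrays the lowest of the 12, with 2.78 (6.86-fold) between the group means. Nutlin raised GDF15 by 1.69 ± 0.15 (3.23-fold, adjusted p = 1.45e-07) in sh-con. In sh-p53 the change was 0.56 (95% interval 0.23 to 0.88), and the arrays did not overlap, but it was not called over all genes (adjusted p = 0.279). The response was smaller there by -1.13 (adjusted p = 0.00214).

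With AICAR the change of GDF15 was 0.24 in sh-con (95% interval -0.09 to 0.56, adjusted p = 0.229) and -0.94 ± 0.15 (1.91-fold lower, adjusted p = 0.000125) in sh-p53. The difference between the lines was -1.17 ± 0.22 (95% interval -1.63 to -0.72, adjusted p = 0.0136). Leaving out array 1 of sh-con DMSO, array 1 of sh-p53 AICAR, or either array of sh-p53 DMSO ended the call, at adjusted p = 0.056 to 0.0735, while the value stayed between -1.14 and -1.19 in those fits. Nutlin gave a higher GDF15 level than AICAR by 1.45 in sh-con (adjusted p = 7.58e-07) and by 1.49 in sh-p53 (1.11e-06). Those differences themselves differed between the lines by 0.04, with a 95% interval from -0.42 to 0.50.

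**Figure D3:**
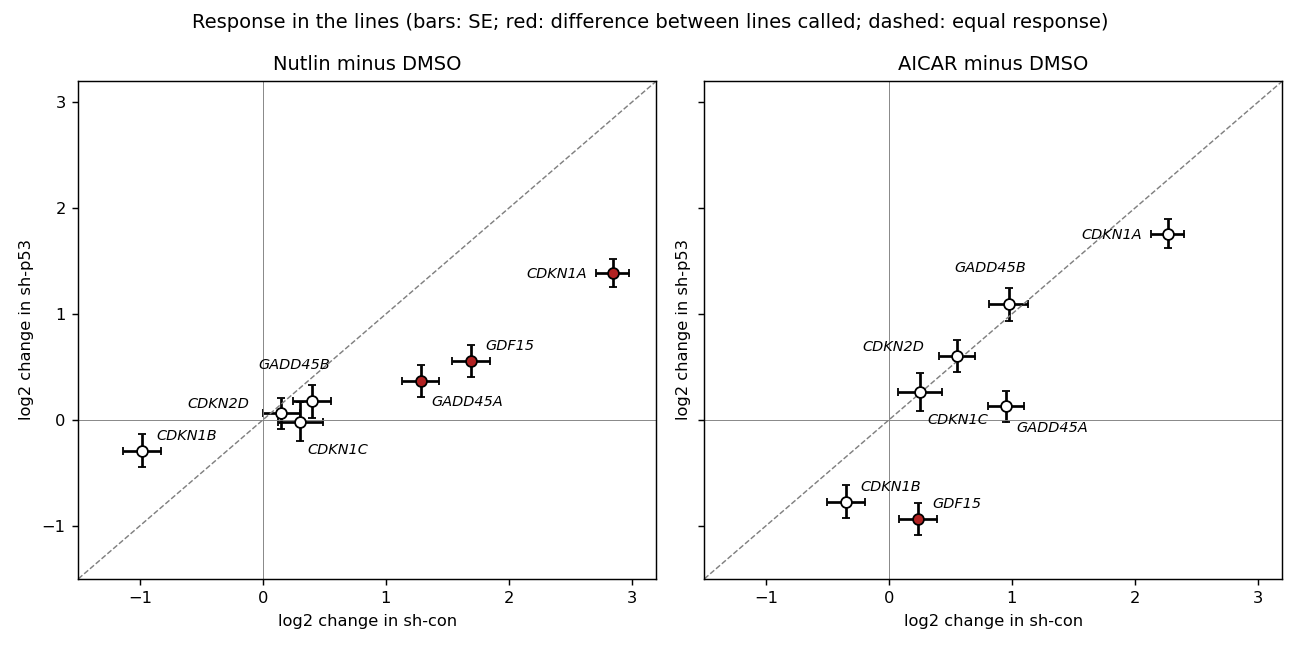
Log2 change with Nutlin (left) and AICAR (right) against DMSO in sh-con (horizontal axis) and sh-p53 (vertical axis) for the 7 measured members; bars are SE, the dashed line marks equal responses, and filled points are members whose response differed between the lines at adjusted p under 0.05. CDKN1A, GDF15 and GADD45A lie below the line for Nutlin, and for AICAR GDF15 lies at 0.24 and -0.94.

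CDKN1B, whose product p27 restrains CDK2 complexes in resting cells, was the member that fell with Nutlin in sh-con. Its arrays read 8.42 and 8.41 with DMSO, 7.54 and 7.33 with Nutlin and 8.12 and 8.01 with AICAR in sh-con. In sh-p53 they read 8.48 and 8.76 with DMSO, 8.51 and 8.16 with Nutlin and 7.75 and 7.94 with AICAR. The sh-con Nutlin arrays were the lowest of the 12, and in sh-p53 the AICAR arrays were the lowest. Nutlin lowered it by -0.98 ± 0.15 (1.97-fold, limma adjusted p = 0.000111) in sh-con, and the change in sh-p53 was -0.29 (adjusted p = 0.863). AICAR lowered it by -0.77 ± 0.15 (1.71-fold, adjusted p = 0.000775) in sh-p53, and the change in sh-con was -0.35 (adjusted p = 0.084), which was called with arrays centred on the median of their probe sets (-0.49, 0.0304).

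For CDKN1B neither response differed between the lines by the test over all genes: 0.69 for Nutlin (95% interval 0.23 to 1.15, adjusted p = 0.0666) and -0.42 for AICAR (-0.88 to 0.04, 0.454). The Nutlin difference was called with a filter at the 50th percentile (0.0366), only the groups compared (0.0435), a robust prior (0.0386) or without sh-p53 Nutlin array 2 (0.0286). The contrast of Nutlin with AICAR did differ between the lines. Nutlin gave the lower CDKN1B level in sh-con, by -0.63 (adjusted p = 0.00363), and the higher level in sh-p53, by 0.48 (0.022). The change from the former to the latter was 1.11 ± 0.22 (adjusted p = 0.00308), in the comparison added after the data had been seen. The sh-con value was lost without sh-con Nutlin array 2 (0.0504). The sh-p53 value was lost without sh-p53 AICAR array 1 (0.39, adjusted p = 0.169) and without sh-p53 Nutlin array 1 (0.31, 0.254).

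CDKN2D, the INK4 inhibitor of CDK4 and CDK6, rose with AICAR in both lines. Its arrays read 6.34 and 6.69 with DMSO, 6.64 and 6.70 with Nutlin and 6.99 and 7.15 with AICAR in sh-con. In sh-p53 they read 6.63 and 6.62 with DMSO, 6.59 and 6.79 with Nutlin and 7.30 and 7.15 with AICAR. The 4 AICAR arrays were the highest of the 12, and the DMSO and Nutlin arrays overlapped in both lines. The change with AICAR was 0.55 ± 0.15 (1.47-fold, adjusted p = 0.0068) in sh-con and 0.60 ± 0.15 (1.52-fold, adjusted p = 0.00375) in sh-p53. Leaving out array 1 of sh-con DMSO (0.37, adjusted p = 0.152) or array 2 of sh-con AICAR (0.0555) ended the former call. With Nutlin the changes were 0.15 and 0.06 (adjusted p = 0.44 and 0.984). Nutlin gave a lower level than AICAR by -0.54 in sh-p53 (adjusted p = 0.00845), lost without sh-p53 AICAR array 1 (0.0783) or sh-p53 Nutlin array 1 (0.0894). In sh-con the difference of -0.40 (0.0431) was lost under 7 of the other settings, 3 of them without an array, with adjusted p from 0.0605 to 0.187.

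CDKN1C, whose product p57 belongs with p21 and p27 to the inhibitors of whole cyclin-CDK complexes, gave no call in any comparison. Its arrays read 7.29 and 7.56 with DMSO, 7.55 and 7.91 with Nutlin and 7.47 and 7.89 with AICAR in sh-con. The sh-p53 arrays read 7.58 and 7.55 with DMSO, 7.34 and 7.76 with Nutlin and 7.93 and 7.73 with AICAR. Arrays of a group lay up to 0.42 apart, against 0.41 between the highest and the lowest group mean. The widest change against DMSO was 0.31 with Nutlin in sh-con (95% interval -0.08 to 0.69, adjusted p = 0.205). No pair of neighbours in the order of its 6 groups differed in the limma fit.

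Comparing the lines within each treatment, CDKN1A was lower in sh-p53 throughout, and GDF15 and GADD45A were lower with both compounds. In DMSO 0 of 7 members were called higher and 1 lower, where 0.261% and 0.384% of all genes were, and limma without adjustment gave the same 0 and 1. With Nutlin 1 was higher, CDKN1B, and 3 lower, where 13.1% and 8.31% of all genes were. With AICAR 0 were higher and 3 lower, where 4.13% and 4.69% were, and the unadjusted counts were again 0 and 3. In the AICAR arrays 46.8% of the called genes were higher in sh-p53, and 36.2% with arrays centred on the genes tested. CDKN1A was lower in sh-p53 by -2.22 with Nutlin (4.66-fold, adjusted p = 9.2e-10) and by -1.27 with AICAR (2.41-fold, 9.67e-06). GDF15 was lower by -1.29 (2.44-fold, 5.88e-06) and -1.33 (2.51-fold, 2.42e-05), and by -0.15 in DMSO (0.999). GADD45A was lower by -0.75 with Nutlin (adjusted p = 0.00106) and -0.66 with AICAR (0.00848), the latter lost without sh-p53 AICAR array 1 (-0.54, 0.11). CDKN1B was higher in sh-p53 by 0.90 with Nutlin (1.86-fold, adjusted p = 0.000338). For GADD45B and CDKN2D no difference between the lines was called: in DMSO, Nutlin and AICAR these were -0.09, -0.31 and 0.03 for GADD45B and 0.11, 0.02 and 0.16 for CDKN2D.

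Set against each other, Nutlin and AICAR gave different levels of 5 of 7 members in each line, at doses that differ (10 uM and 0.5 mM). In sh-con CDKN1A and GDF15 were higher with Nutlin (2 of 7, where 17.9% of all genes were) and CDKN1B, GADD45B and CDKN2D lower (3 of 7, 16.9%). In sh-p53 GDF15 and CDKN1B were higher with Nutlin (2 of 7, 19%) and CDKN1A, GADD45B and CDKN2D lower (3 of 7, 15.6%). Leaving out sh-con AICAR array 2 left 3 members called in sh-con, and leaving out sh-con Nutlin array 2 left 2. In sh-p53 2 members were called without AICAR array 1 and 2 without Nutlin array 1. For GADD45A the difference was 0.33 in sh-con (adjusted p = 0.0957, and 0.0192 to 0.0473 under the 3 settings that called it) and 0.24 in sh-p53 (0.227). The difference of this contrast between the lines was called for CDKN1B as positive (1 of 7, where 5.24% of all genes were) and for CDKN1A as negative (1 of 7, 2.64%). Over all genes 55% of the calls in sh-p53 were higher with Nutlin, and 69.2% with arrays centred on the median of their probe sets. For the difference between the lines the share was 66.5%, and 54% after quantile normalisation again.

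The order of the 6 groups set the other members apart as follows. For GDF15, sh-con Nutlin stood above sh-p53 Nutlin, and sh-p53 AICAR stood below sh-p53 DMSO, whereas the neighbours between them (sh-p53 Nutlin, sh-con AICAR, sh-con DMSO and sh-p53 DMSO) did not differ at the threshold (adjusted p = 0.229 to 0.999). For GADD45A the 2 sh-con groups with a compound stood at the top and did not differ at the threshold (0.0957), and the lower of them, sh-con AICAR, stood above sh-p53 Nutlin by 0.42 (0.0348). For GADD45B both AICAR groups led (0.94 between them), followed by sh-con Nutlin. For CDKN1B no neighbours differed at the threshold except the lowest pair, sh-p53 AICAR over sh-con Nutlin, by 0.415 (0.0392). CDKN2D had both AICAR groups at the top (0.609 between them), with 0.38 between the lower of these and sh-p53 Nutlin (0.056).

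The profiles were also compared across genes, by the root mean square difference between 6 group means, each gene centred on its own mean. Among the members CDKN1C and CDKN2D were closest (0.17), followed by CDKN2D and GADD45B (0.22), and CDKN1A and CDKN1B were farthest apart (1.6). Levels were not scaled to a gene's range, so members that moved little lie near each other whatever their pattern. The group means spanned 0.41 for CDKN1C and 0.71 for CDKN2D, against 3.61 for CDKN1A. Among all genes tested outside the members, the closest to CDKN1A were TP53INP1 (0.322), CPEB4 (0.428) and FAS (0.438). TP53INP1, a p53 target that promotes cell death and autophagy, had group means of 7.75, 10.11 and 10.62 in sh-con with DMSO, Nutlin and AICAR, and 7.20, 8.56 and 8.90 in sh-p53. Unlike CDKN1A, it was higher with AICAR than with Nutlin in sh-con. The closest to GADD45A were PHLDA3 (0.092), TSPAN31 (0.11) and LDLRAD1 (0.112), and the closest to GDF15 were TMEM144 (0.163), TMEM68 (0.177) and INPP5D (0.181). For CDKN1B they were FBXO16 (0.056), MTF2 (0.069) and TRA2B (0.072), and TRA2B, a splicing factor, had means of 10.46, 9.54 and 10.11 with DMSO, Nutlin and AICAR in sh-con, against 10.56, 10.35 and 10.03 in the other line. These distances describe 6 means and carry no test.

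The genes that the inhibitors act on moved apart with the compounds. The counts of each list stand against the shares of all genes called: in sh-con 11.3% were higher and 18.9% lower with Nutlin, against 14.6% and 23.2% with AICAR. The sh-p53 shares were 0.0796% and 0% with Nutlin and 16.2% and 21.6% with AICAR. Of 12 cyclins and CDKs, 8 fell and 0 rose with Nutlin in sh-con, with a median change of -1.72 against 0.012 over all genes. The log2 change was -3.92 for CDK1, the mitotic kinase (limma adjusted p = 7.34e-11), -3.66 for CCNA2 and -2.78 for CCNB1, in the arrays where CDKN1A stood highest. In sh-p53 0 of the 12 were called with Nutlin, with 4 lower and 0 higher unadjusted (p under 0.05) and a median of -0.26. The Nutlin response differed between the lines for 8, all positive, where 4.67% of all genes were positive and 2.73% negative. With AICAR 4 rose and 3 fell in sh-con (median 0.23), where CDKN1A rose 4.81-fold, and 4 rose and 1 fell in sh-p53 (median 0.12). A link of these changes with the level of CDKN1A was not tested. CDK6, a target of INK4 inhibitors, changed by -2.16 in sh-con and by -1.79 in sh-p53. CCNE2, the cyclin E that activates CDK2, rose by 2.05 and 2.48 with AICAR and fell by 2.24 with Nutlin in sh-con. With AICAR CDK1 rose by 0.94 in sh-con (adjusted p = 0.00129), and its change in sh-p53 was 0.41 (0.12, not called).

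Downstream of the CDKs, 14 of 19 RB and DREAM genes fell and 0 rose with Nutlin in sh-con (median -0.92). The change was -3.06 for MYBL2, which drives mitotic genes, -2.95 for FOXM1 and -2.12 for RBL1, a pocket protein related to RB (adjusted p = 7.32e-09). In sh-p53 0 were called with Nutlin (7 lower and 0 higher unadjusted, median -0.29). With AICAR 2 rose and 9 fell in sh-con (median -0.28), and 7 rose and 6 fell in sh-p53 (median -0.14). E2F7, a repressor among the E2F factors and itself a p53 target, rose by 1.96 with AICAR in sh-con and by 1.33 in sh-p53. With Nutlin it was called in neither line, and its change in sh-con was -0.11 (limma adjusted p = 0.61). TFDP2, a partner of E2F factors, changed by -1.48 and -1.41 with AICAR and by -0.82 with Nutlin in sh-con.

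**Figure D4:**
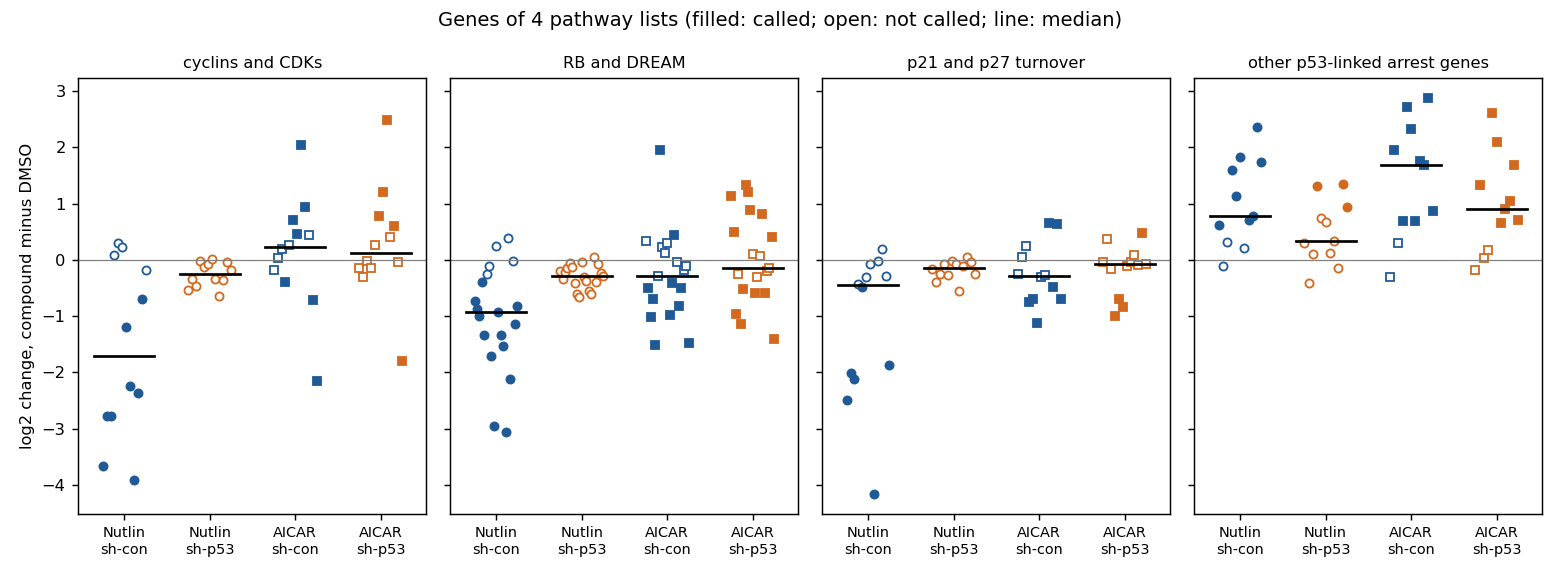
Log2 change against DMSO (vertical axis) of each tested gene of 4 lists, by compound and line; filled symbols are called genes, open symbols are not, circles are Nutlin, squares AICAR, blue sh-con, orange sh-p53, and the line is the median. Cyclins and CDKs have a median of -1.72 with Nutlin in sh-con and 0.23 with AICAR in sh-con, and the other p53-linked arrest genes have medians above 0 in all 4 columns.

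Of 12 genes for the turnover of p21 and p27, 6 fell and 0 rose with Nutlin in sh-con (median -0.45). The change was -4.16 for DTL, the adaptor that marks p21 for destruction on PCNA (adjusted p = 9.62e-12), -2.49 for CDC20, an activator of the APC/C ligase, and -2.11 for CKS2, a partner of CDKs. In sh-p53 0 were called (2 lower and 0 higher unadjusted, median -0.14). With AICAR 2 rose and 5 fell in sh-con and 1 rose and 3 fell in sh-p53 (medians -0.29 and -0.08), among them the cullins CUL4B (-1.12 and -0.83), CUL1 (-0.76 and -0.996) and CUL4A (-0.70 in both).

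Of 9 tested relatives of the members, 4 rose and 1 fell in sh-con with Nutlin (median 0.43), and 0 were called in sh-p53 (0 higher and 1 lower unadjusted, median -0.01). CDKN2B (p15), another INK4 inhibitor, rose by 0.97, and BTG1, an antiproliferative relative of BTG2, by 0.76. With AICAR BTG1 changed by 0.05 in sh-con (adjusted p = 0.804, not called) and fell by 0.67 in sh-p53 (0.00289). CDKN3, a phosphatase that acts on CDKs and peaks in mitosis, changed by -2.70 with Nutlin in sh-con. Its AICAR changes were -0.20 in sh-con and -0.46 in sh-p53, neither called. With AICAR 4 rose and 0 fell in sh-con (median 0.45), and 5 rose and 1 fell in sh-p53 (median 0.50). CDKN2B rose by 1.67 and 1.40 there, and BTG3 by 1.04 and 1.06. TOB1 rose by 0.97 in both lines with AICAR, and TOB2 by 0.91 in sh-con and 1.38 in sh-p53. Of 11 genes of the CCR4-NOT deadenylase, to which BTG and TOB proteins bind, 1 rose and 4 fell in sh-con with Nutlin (median -0.34), with CNOT9 at -1.0. The AICAR changes of CNOT9 were -0.34 and -0.19, neither called (adjusted p = 0.0622 and 0.292). In sh-p53 0 were called (0 at an unadjusted p under 0.05, median -0.10). With AICAR 0 rose and 8 fell in sh-con (median -0.56), and 0 rose and 7 fell in sh-p53 (median -0.41), with CNOT2 at -1.29 and -1.79. Unadjusted, limma gave 0 higher in both lines, with 9 lower in sh-con and 7 in sh-p53.

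Of 9 tested kinases downstream of GADD45 proteins, 2 rose and 3 fell in sh-con with Nutlin (median -0.11) and 0 were called in sh-p53 (1 lower unadjusted, median -0.10). With AICAR 1 rose and 4 fell in sh-con (median -0.004), and 3 rose and 4 fell in sh-p53 (median -0.18). Over all genes Nutlin gave 11.3% higher and 18.9% lower in sh-con, and AICAR gave 14.6% and 23.2% there, against 16.2% and 21.6% for AICAR in sh-p53. Nothing particular to the list can be read from counts this small beside those shares. MAP2K6, which activates p38, changed by -1.75 and -1.63 with AICAR in sh-con and sh-p53 and by -1.16 with Nutlin in sh-con. MAP3K4, which GADD45 proteins bind, changed by -0.82 with Nutlin and by -0.83 with AICAR in sh-con, and by -0.59 with AICAR in sh-p53 (adjusted p = 0.00302). Of 9 tested genes of GDF15 and TGF-beta signalling, 2 rose and 2 fell in sh-con with Nutlin (median -0.13), and 0 were called in sh-p53 (0 unadjusted, median -0.16). With AICAR 2 rose and 3 fell in sh-con (median -0.02) and 1 rose and 4 fell in sh-p53 (median -0.09). Beside the same shares of all genes, these counts too are small. FURIN, a protease that matures TGF-beta relatives, rose by 0.77 with AICAR in sh-p53 (adjusted p = 0.000264), fell by 0.54 with Nutlin in sh-con (0.00654) and was at 0.12 with AICAR in sh-con (0.5, not called). TGFBR1, a receptor for TGF-beta, rose by 0.89 with Nutlin and by 1.11 with AICAR in sh-con, and its AICAR change in sh-p53 was 0.37 (adjusted p = 0.0733, not called).

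Among 17 other regulators of the members' transcription, 4 rose and 2 fell in sh-con with Nutlin (median 0.05) and 0 were called in sh-p53 (1 lower unadjusted, median -0.005). MYC, a repressor of CDKN1A, fell by 0.63 with Nutlin in sh-con and by 1.11 and 1.17 with AICAR in sh-con and sh-p53. TFAP4, another, fell by 0.88 with Nutlin in sh-con and by 1.03 and 0.89 with AICAR. With Nutlin in sh-p53 neither was called (-0.27 for MYC, adjusted p = 0.846, and -0.37 for TFAP4, 0.731). With AICAR 5 rose and 5 fell in sh-con (median -0.08), and 4 rose and 5 fell in sh-p53 (median 0.07). All genes gave 14.6% higher and 23.2% lower with AICAR in sh-con, and the sh-p53 shares were 16.2% and 21.6%, a few genes of 17 from the list's counts. ATF4, a transcription factor that acts in the integrated stress response, changed by -1.96 in sh-con and -2.27 in sh-p53 with AICAR. Those values are from the brighter of its 2 probe sets, and the dimmer one gave -0.71 and -1.01. GDF15 changed with AICAR by 0.24 in sh-con (not called) and by -0.94 in sh-p53, and a link with ATF4 was not tested. ATF3 rose by 1.47 and 1.37, and KLF10 by 1.26 and 1.24. Of 11 tested genes among other p53-linked arrest genes, 8 rose with Nutlin in sh-con (median 0.78), 3 in sh-p53 (median 0.34), 9 with AICAR in sh-con (median 1.68) and 8 in sh-p53 (median 0.91). Over all genes 11.3% were called higher with Nutlin in sh-con and 0.0796% in sh-p53, against 14.6% and 16.2% with AICAR. None of the 11 was called lower in those 4 comparisons. At an unadjusted limma p under 0.05, 7 were higher and 1 lower with Nutlin in sh-p53, the only lower one in those 4 comparisons. CCNG1 was called higher with Nutlin in sh-con (0.62), but changed by -0.30 and -0.18 with AICAR in sh-con and sh-p53, neither called. The 3 genes that rose with Nutlin in sh-p53, where CDKN1A did too, were TP53INP1 (1.36), MDM2 (1.32) and ZMAT3 (0.94). PLK2 and PLK3, stress-induced kinases, rose by 2.72 and 2.33 with AICAR in sh-con and by 2.62 and 2.11 in sh-p53, and by 1.15 and 1.83 with Nutlin in sh-con. E2F7 stood in both this list and the list of RB and DREAM genes.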

How the data were processed

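Total RNA of HepG2 cells was hybridised to Affymetrix Human Gene arrays, 12 in all. The submitters' processing notes name RMA and Partek, with versions that are not given in the sources used here. In RMA the background is corrected, arrays are quantile-normalised and probes are summarised per set. The deposited values are log2 levels, from 2.14 to 14.33, made so by the authors, and carry no detection call. RMA removes in part a change that most genes share, and understates changes of dim genes.

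Groups came from the array titles, and each value column matched 1 title. Of 33297 probe sets, the platform annotation, which can be old, gave 19460 a single symbol and 1754 several, and 12083 are unnamed here. The RefSeq table (GRCh38.p14) listed 19429 of the former. A gene was read from its brightest probe set (769 of 18417 genes had more than 1). The 4604 genes whose mean lay below the 25th percentile (4.58) were dropped as dim, leaving 13813 to test.

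Group means of all 12 arrays were fitted using limma 3.58.1 (R 4.3.3, tables read by data.table, version 1.17.8), with 6 residual and 11.3 prior degrees of freedom and a prior SD of 0.154, and 2-sided p-values were adjusted by Benjamini-Hochberg within each of 12 comparisons. The script was tested on simulated data. SE and 95% intervals are those of the fit. Alternatives were other filters, scalings, priors and probe-set rules, only the groups compared, a replicate block and leaving out each array.

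Named were all members, up to 3 called genes of each of 9 pathway lists with the largest changes in a comparison, and the 3 genes closest in profile to CDKN1A, CDKN1B, GADD45A and GDF15. The members and lists were chosen with earlier results of these data known. Whether same-numbered arrays share a batch is not stated, and their deviations correlated from -0.558 to 0.567 over 15 pairs of groups, so they were not paired.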

Additional observations from a re-analysis of the deposited data

Results flagged for a closer look

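The following results differed between the lines by a test of the difference itself, in limma over all genes. The response to Nutlin, sh-p53 minus sh-con, was lower for CDKN1A (-1.45), GDF15 (-1.13) and GADD45A (-0.91). The response to AICAR was lower for GDF15 (-1.17), which changed by 0.24 in sh-con (not called) and by -0.94 in sh-p53. The difference between Nutlin and AICAR was lower in sh-p53 for CDKN1A (-0.95) and higher for CDKN1B (1.11), in a comparison added after the data had been seen. For both genes the compound with the higher mean was not the same in the lines. Within sh-p53 the difference was -0.37 for CDKN1A and 0.48 for CDKN1B, and leaving out 1 array could end either call. The same held for CDKN1B in sh-con (-0.63). Leaving out 1 array ended the calls of GADD45A for Nutlin (without sh-con DMSO array 2, adjusted p = 0.0502) and of GDF15 for AICAR (0.056 to 0.0735).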

How the results depend on the processing

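Of 1176 refits of a member in a comparison, 1097 kept the direction and the side of the threshold, 30 lost a call, 15 gained one and 34 changed sign, none of these 34 for a called value. Sign changes were small. Centring on the genes tested (chosen after seeing the data) gave CDKN1C -0.050 for the AICAR response between the lines and 0.027 for Nutlin in sh-p53, CDKN2D -0.012 for that response and -0.035 between lines in Nutlin, and GADD45B -0.016 between lines in AICAR. Quantile normalisation again gave CDKN1C 0.041 for Nutlin in sh-p53 and CDKN2D -0.012 between lines in Nutlin. Centring on all probe sets gave GADD45A -0.024 for AICAR in sh-p53. Leaving out 1 array at a time, CDKN1C ranged from -0.20 to 0.22 for the AICAR response between lines, -0.16 to 0.26 for Nutlin minus AICAR in sh-con, -0.23 to 0.19 for Nutlin in sh-p53, and -0.055 to 0.37 and -0.39 to 0.030 between lines in AICAR and Nutlin. CDKN2D ranged from -0.13 to 0.23 and -0.26 to 0.089 for the AICAR and Nutlin responses between lines, -0.026 to 0.33 and -0.036 to 0.16 for Nutlin in sh-con and sh-p53, and -0.072 to 0.28 and -0.082 to 0.12 between lines in DMSO and Nutlin. GADD45A (-0.24 to 0.062) and GDF15 (-0.17 to 0.25) crossed 0 for Nutlin minus AICAR between lines, and GADD45B for the AICAR response between lines (-0.087 to 0.33) and between lines in AICAR (-0.17 to 0.24).

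Members called for the AICAR response between lines were 2 instead of 1 with centring on the genes tested, a filter at the 50th percentile, a robust prior and quantile normalisation again, and 0 to 1 without an array. Those called between lines in DMSO were 0 to 1 without an array, and for Nutlin minus AICAR 2 to 5 in sh-con and 2 to 4 in sh-p53. Over all genes, the 140 calls of the AICAR response between lines became 89 with centring on probe sets, 221 on genes tested, 217 with the 50th percentile, 274 with the robust prior, 348 with quantile normalisation and 40 to 200 without an array. The 11 calls for Nutlin in sh-p53 became 28 with the 50th percentile, 67 with only the groups compared, 26 with the robust prior and 5 to 9 without an array. Between lines, 1219 calls in AICAR became 1829 with quantile normalisation and 521 to 1038 without an array, and 89 in DMSO became 175 with only the groups compared and 42 to 60 without an array. Without an array, the others ranged from 3173 to 5971 and 3361 to 4661 for AICAR in sh-con and sh-p53, 2061 to 3350 for Nutlin in sh-con, 653 to 986 for its response between lines, 1716 to 2767 between lines in Nutlin and 582 to 1525 for Nutlin minus AICAR between lines. The cause was not tested. A group left with 1 array was taken to vary like the others, and neighbours in the order of groups outside the 12 comparisons were not refitted. The replicate number as a block changed no member's call, and with it 12 genes were called for Nutlin in sh-p53, 160 for the AICAR response between lines and 5303 for AICAR in sh-con.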
